A study of Homo sapiens with 15 samples.

Results

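The SOX transcription factor family was followed in HCC95 cells after knockdown of TP63, SOX2, KLF5 or GRHL2. The members were picked by gene name from the deposited count table and were SOX2, SOX4, SOX6, SOX7, SOX9, SOX12, SOX13, SOX15 and SOX21, which encode proteins, and the long noncoding RNA gene SOX2-OT. They were 10 of the 61544 genes in the table, and all 10 were among the 25108 genes that passed the filter on low counts. HCC95 is an established human cell line of lung squamous cell carcinoma. A small interfering RNA (siRNA) directs the cleavage of matching mRNA, and every group had received one. The groups were siNC1 (a negative control siRNA), siKLF5b, siTP63b, siSOX2b and siGRHL2a (siRNAs against KLF5, TP63, SOX2 and GRHL2), with 3 libraries each. Each target was represented by a single siRNA in a single cell line, and the time from transfection to RNA extraction was not given in the sources used here. The labels did not say whether the 3 libraries of a group came from separate cultures, so the p-values measure the spread between these libraries, which may be technical.

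SOX proteins bind DNA through a high mobility group (HMG) box, which recognises a short AT-rich word in the minor groove and bends the DNA. They usually act beside a partner factor on a neighbouring site, and they are sorted into groups by the similarity of the HMG box. SOX2 (group B) maintains progenitors in the foregut, the airway epithelium and the nervous system, and its locus on the long arm of chromosome 3 is often amplified in squamous cell carcinoma of the lung. SOX21 also belongs to group B but acts mainly as a repressor. SOX4 and SOX12 form part of group C, SOX6 and SOX13 part of group D, which lack a transactivation domain of their own, SOX9 belongs to group E, SOX7 to group F and SOX15 to group G. SOX2-OT (SOX2 overlapping transcript) is transcribed from the same strand as SOX2, which lies within it.

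Total counts were 18947986 to 24845273 per library in siNC1, 15655495 to 24524882 in siKLF5b, 27713754 to 30366136 in siTP63b, 22255856 to 32520477 in siSOX2b and 32138582 to 34229063 in siGRHL2a. The libraries formed 2 sets by the column names of the table, siNC1 with siKLF5b (6 libraries) and the other 9. The share of even numbers among counts of 20 to 500 was 49.7% to 50.7% in the first set and 66.1% to 69.0% in the second, and the leading principal component (51.0% of the variance) separated them. Counting both mates of each read pair gives an excess of even counts, and the sources did not state whether reads or fragments were counted, so counts and totals of the second set may stand for reads and those of the first for fragments. This was not tested. A difference between the sets and a difference between siRNAs cannot be told apart, so tests were run only within a set: siKLF5b against siNC1, and siTP63b, siSOX2b and siGRHL2a against each other. The last 3 comparisons share libraries. KLF5 stood at 72.5 CPM (counts scaled to a common library size, with TMM factors) in siKLF5b against 113 CPM in siNC1. This was a log2 fold change of -0.64 (adjusted p = 5.3e-10, edgeR), short of the 0.75 required for a call. TP63 stood at 363 CPM in siTP63b against 690 CPM in siSOX2b and 831 CPM in siGRHL2a. GRHL2 stood at 91.3 CPM in siGRHL2a against 100 CPM in siSOX2b and 117 CPM in siTP63b. The log2 fold changes of GRHL2 were only 0.14 for siSOX2b and 0.36 for siTP63b, each against siGRHL2a, and neither was called. The transcript level of GRHL2 in siGRHL2a was thus only slightly below that of these groups. Both had received siRNAs against other factors. Their set held no control siRNA, so the fall from a control level was not measured. The study assessed the target proteins by Western blot. All 8 squamous markers were measured, and their summed level was lower in siKLF5b (6031 to 7053 CPM) than in siNC1 (9986 to 11518 CPM), and lower in siTP63b (6522 to 7659 CPM) than in siSOX2b (9460 to 10460 CPM) or siGRHL2a (12057 to 12432 CPM). Most of this sum was KRT5 (mean 8633 CPM in siNC1 and 5363 CPM in siKLF5b), while DSG3 had a log2FC of 0.21 in siKLF5b (adjusted p = 0.00185, edgeR). Between siSOX2b and siGRHL2a, 7 of the 8 were lower in siSOX2b by the adjusted p alone, and 0 were called. In that comparison 24.5% of all genes passed the adjusted p alone, in either direction. The lung gland (1 of 4 markers tested), neuroendocrine (2 of 5), fibroblast (3 of 4) and endothelial (1 of 3) lists reached at most 15 CPM in any library, NEUROD1 was at 0 in all 15 libraries, and the immune list (2 of 3) stood at 21.5 to 24.4 CPM in siKLF5b, 33.8 to 36.5 CPM in siNC1 and 28.1 to 39.8 CPM in the other 9 libraries. The immune marker CD68 had a log2FC of -0.62 in siKLF5b (adjusted p = 2.7e-06, edgeR). At low levels, the fibroblast marker PDGFRB was called lower in siKLF5b (-0.85) and lower in siTP63b than in siSOX2b (-1.20) and siGRHL2a (-1.04), NKX2-1 lower in siTP63b than in siGRHL2a (-0.85), and in siSOX2b against siGRHL2a PTPRC higher (adjusted p = 0.0263, edgeR) and VWF lower (-0.86). The part of these marker differences in the results on the SOX genes was not tested. In such bulk libraries, fewer cells expressing a gene and less RNA per cell cannot be told apart.

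The counted region of each gene was its whole span, introns included. No SOX gene lying wholly inside another gene, on either strand, had more counts than that gene in any library. Reads in an overlap therefore appeared to be counted for both genes without regard to strand, which the sources did not state. SOX2 (ENSG00000181449.4) is a gene of 1 exon that runs from 181711925 to 181714436 on chromosome 3 (hg38, plus strand) and lies wholly within SOX2-OT (ENSG00000242808.11), from 180989762 to 181836880. The 250 bases before the start of SOX2 (chr3:181711675-181711924, plus strand) and of SOX21 (chr13:94712546-94712795, minus strand) are shown because SOX2 held the largest difference between groups and SOX21 the largest increase in siKLF5b. They were taken from the RefSeq table for GRCh38.p14, which had entries for 7 of the 10 members, and are written in the direction of transcription.
SOX2: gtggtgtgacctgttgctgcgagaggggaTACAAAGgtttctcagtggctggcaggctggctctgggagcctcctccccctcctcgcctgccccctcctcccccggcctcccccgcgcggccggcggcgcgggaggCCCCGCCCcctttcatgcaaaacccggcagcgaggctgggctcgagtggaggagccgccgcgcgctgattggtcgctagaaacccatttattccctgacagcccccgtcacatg
SOX21: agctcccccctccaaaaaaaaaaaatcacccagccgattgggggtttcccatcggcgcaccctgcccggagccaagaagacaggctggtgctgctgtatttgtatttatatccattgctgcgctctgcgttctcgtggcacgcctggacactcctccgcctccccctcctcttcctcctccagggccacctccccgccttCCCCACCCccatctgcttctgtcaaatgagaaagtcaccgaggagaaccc
The capitals mark words that were searched on both strands. In SOX2, TACAAAG is a SOX word (NNCAANG with A or T at each N) whose first base is at -221 from the start, and CCCCGCCC is a KLF word (CCCCNCCC) at -114. In SOX21, CCCCACCC is a KLF word at -50, and no SOX word was found. The GRHL word AACCGG was found in neither. Among all 35116 promoter windows of that length, 17.9% held a SOX word, 36% a KLF word and 5.99% the GRHL word. A match describes the letters only. The primers that the study used for SOX2 mRNA are shown because they place its transcript assay. They matched the coding exon from 181713027 to 181713047 (plus) and from 181713116 to 181713136 (minus), each at 1 place on chromosome 3, and span a product of 110 bases.
SOX2 forward primer: tacagcatgtcctactcgcag
SOX2 reverse primer: gaggaagaggtaaccacaggg
Both lie inside SOX2-OT as well as SOX2.

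SOX2 varied most of all members across the 5 groups. It measured 80.9, 66.8 and 72.1 CPM in the siNC1 libraries and 109, 105 and 107 CPM in siKLF5b. In siTP63b it measured 30, 31.5 and 27.1 CPM, in siSOX2b 9.72, 7.09 and 10.1 CPM, and in siGRHL2a 18.4, 20.9 and 21.2 CPM. The 5 groups lay in the order siKLF5b, siNC1, siTP63b, siGRHL2a and siSOX2b, and no group overlapped its neighbour, although the step from siNC1 to siTP63b is also the step between the sets. The plot of CPM by library shows each of these groups apart.

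**Figure D1:**
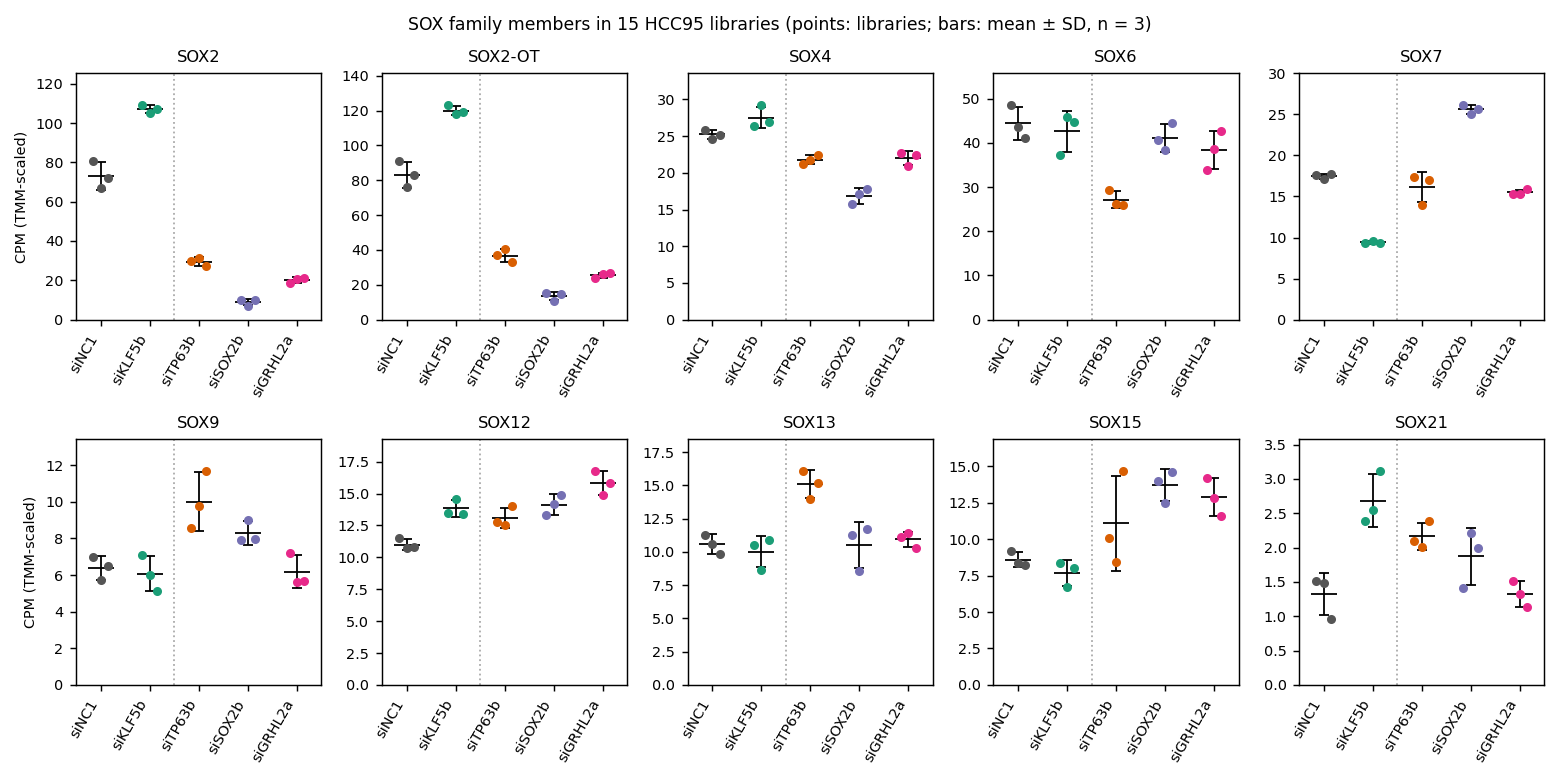
CPM (TMM-scaled, axes from 0) of the 10 SOX family members in each of the 15 libraries, by siRNA group. Points are libraries, bars the mean ± SD (n = 3) and the dotted line parts the 2 sets of libraries; SOX2 lies at 66.8 CPM or above in every siNC1 and siKLF5b library and at 10.1 CPM or below in every siSOX2b library.

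In siSOX2b, where SOX2 itself was the target, the transcript was 3.32-fold lower than in siTP63b and 2.27-fold lower than in siGRHL2a. The log2 fold change (log2FC) of siTP63b against siSOX2b was 1.73 (SE 0.0964, adjusted p = 3.8e-15 in the quasi-likelihood test of edgeR, Benjamini-Hochberg over all genes tested). That of siSOX2b against siGRHL2a was -1.18 (SE 0.098, adjusted p = 1.2e-10, edgeR). Between siTP63b and siGRHL2a the difference was smaller, a log2FC of 0.55 (SE 0.0866, adjusted p = 9.0e-06, edgeR), which did not reach the log2FC of 0.75 that was required, beside an adjusted p below 0.05, for a call. In siKLF5b the SOX2 level was 1.46-fold that of siNC1, with a log2FC of 0.54 (SE 0.079, adjusted p = 3.7e-06, edgeR), again below that requirement. Over the 13 alternatives this log2FC ranged from 0.48 to 0.62, and the adjusted p stayed below 0.05 in all 13. An exact two-sided permutation test of 3 libraries against 3 gave p = 0.1 in each of these comparisons, the smallest value it allows.

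SOX2-OT followed SOX2 in the deposited counts. It measured 90.9, 76 and 82.9 CPM in siNC1, 123, 118 and 119 CPM in siKLF5b, 36.8, 40.3 and 33 CPM in siTP63b, 15.2, 10.9 and 14.9 CPM in siSOX2b, and 23.7, 26.1 and 26.6 CPM in siGRHL2a. Its log2FCs were 1.44 for siTP63b against siSOX2b and -0.91 for siSOX2b against siGRHL2a, both called, the second just short of the threshold at -0.75 without siSOX2b replicate 2. However, most of these counts lay on SOX2. SOX2 counts made up 87% to 89.6% of the SOX2-OT counts in siNC1 and siKLF5b, 78.2% to 82.2% in siTP63b, 77.6% to 80% in siGRHL2a and 64% to 67.7% in siSOX2b. The siSOX2b libraries thus lay below all others in this share, with a mean of 65.7% ± 1.85 (SD, n = 3) against 80.6% ± 2.09 in siTP63b and 79.1% ± 1.29 in siGRHL2a (exact permutation test, p = 0.1 for each, the smallest possible).

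The counts of SOX2-OT that lay outside SOX2 were therefore fitted separately. They numbered 109 to 329 per library and measured 9.93, 9.16 and 10.7 CPM in siNC1, 13.7, 13.5 and 12.3 CPM in siKLF5b, 6.85, 8.77 and 5.88 CPM in siTP63b, 5.47, 3.76 and 4.82 CPM in siSOX2b, and 5.31, 5.22 and 5.44 CPM in siGRHL2a. The siSOX2b and siGRHL2a libraries overlapped, and their log2FC was -0.17 (SE 0.143, 95% interval -0.45 to 0.11, adjusted p = 0.418, edgeR), whereas the deposited counts had given -0.91. Between siTP63b and siSOX2b it was 0.61 (SE 0.14, adjusted p = 0.00106, edgeR), smaller than the 1.44 of the deposited counts and below the fold required for a call. The difference of siTP63b from siGRHL2a was 0.44 (adjusted p = 0.016, edgeR), and that of siKLF5b from siNC1 was 0.40 (adjusted p = 0.0248, edgeR). The first missed 0.05 without siTP63b replicate 2 (0.27) or siGRHL2a replicate 2 (0.42). The second passed it in 9 of its 13 alternatives, and not without siNC1 replicate 1 (0.40) or 2 (0.35) or siKLF5b replicate 1 (0.37) or 2 (0.38), where its adjusted p in edgeR reached 0.109. Outside SOX2 no comparison was called, except siTP63b against siSOX2b without siSOX2b replicate 1 (0.75), and the siSOX2b and siGRHL2a groups were not separable at this depth. At its upstream end SOX2-OT shares 13 bases with DNAJC19, and DNAJC19 itself had a log2FC of -0.69 in siKLF5b, opposite in sign to the counts of SOX2-OT outside SOX2.

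**Figure D2:**
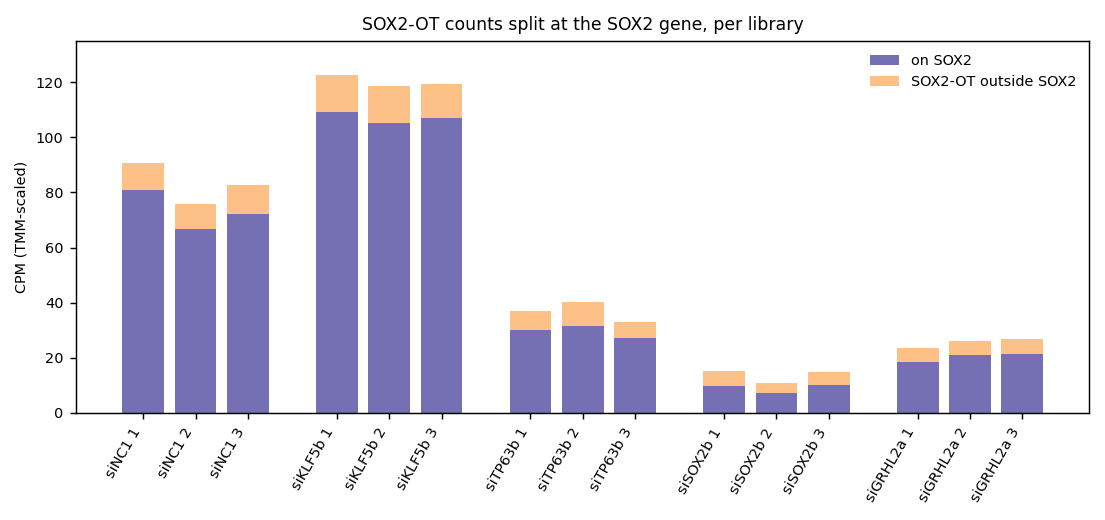
SOX2-OT counts in each library split into those on SOX2 and those outside it, as stacked bars in CPM from 0. The lower segment shrinks to between 7.09 and 10.1 CPM in siSOX2b, and the upper segment lies between 9.16 and 13.7 CPM in siNC1 and siKLF5b and between 3.76 and 8.77 CPM in the other 9 libraries.

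Across the 10 members, other SOX genes left aside, the comparison of siKLF5b with siNC1 called 1 higher (SOX21, against 1.89% of all genes tested) and 1 lower (SOX7, against 1.37%). That is 2 of 10, against 3.26%. At an adjusted p below 0.05 alone there were 5 (SOX2, SOX2-OT, SOX12 and SOX21 higher, SOX7 lower), against 23.2% of all genes. The siTP63b against siSOX2b comparison called SOX2 and SOX2-OT, both higher and both counting the same reads, against 3.88% of all genes higher and 6.7% in either direction, and 6 members passed the adjusted p alone, against 31.8%. Between siSOX2b and siGRHL2a, SOX2 and SOX2-OT were called lower, against 2.27% of all genes lower and 3.32% in either direction, and 5 members passed the adjusted p alone, against 24.5%. In siSOX2b, SOX2 was the siRNA's target, and most SOX2-OT counts lay on SOX2, so neither pair of calls is a result about the family. No other member was called in these comparisons when all libraries were used. Between siTP63b and siGRHL2a, 0 members were called by edgeR and 0 by DESeq2, against 5.39% of all genes by edgeR, while 7 passed an unadjusted p below 0.05 in edgeR, against 36.9%, and the same 7 passed the adjusted p alone, against 27.1%. Without siTP63b replicate 1, SOX9 was called there (log2FC 0.80), without siTP63b replicate 2, SOX21 (0.76), and without siGRHL2a replicate 1, both (0.83 and 0.81). The libraries of the groups compared did not overlap for 6, 6, 7 and 6 members in the comparisons of siKLF5b with siNC1, siTP63b with siSOX2b, siTP63b with siGRHL2a and siSOX2b with siGRHL2a, against 42.5%, 38.3%, 35.6% and 35.2% of all genes. The median log2FC of the members was 0.03, 0.24, 0.26 and 0.01 in the same order, where the medians over all genes tested were -0.010, 0.001, -0.009 and -0.018.

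**Figure D3:**
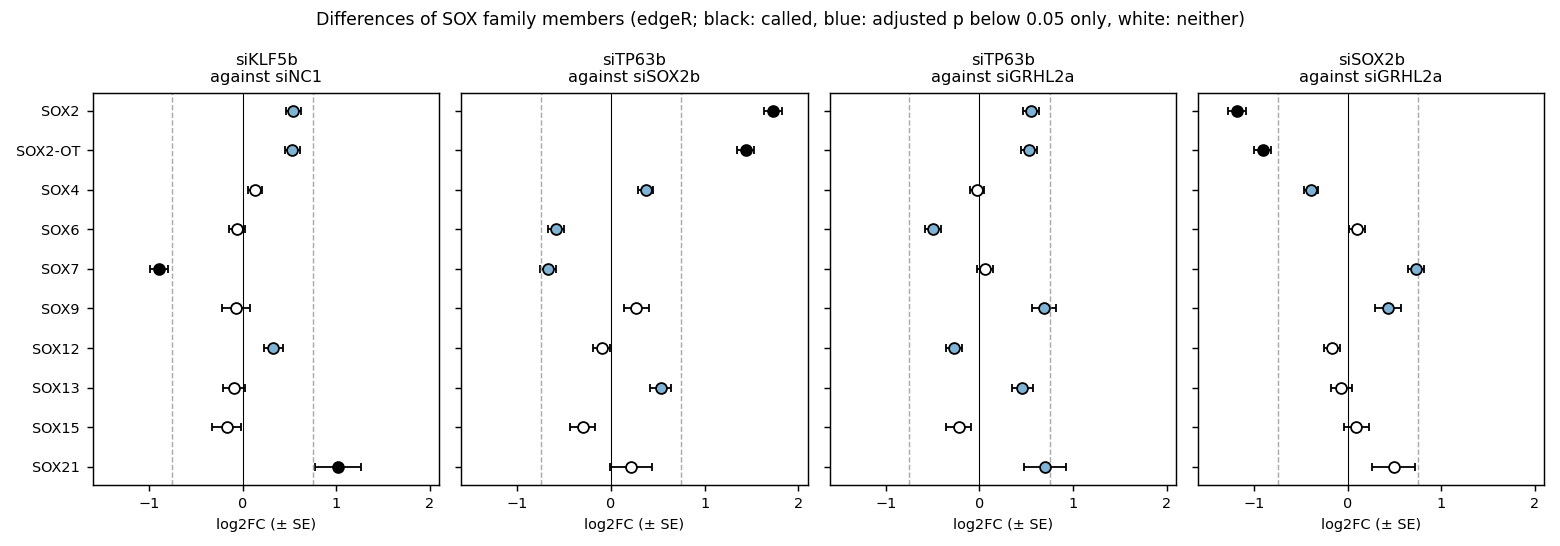
Log2FC ± SE (edgeR) of the 10 members in the 4 comparisons, each the first group minus the second, with dashed lines at ±0.75. Black points were called, blue points passed the adjusted p alone and white points neither; SOX2 lies farthest to the right (1.73) in siTP63b against siSOX2b, and SOX7 and SOX21 are the called genes in siKLF5b.

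SOX21, the other group B member and a repressor, was the member with the largest increase in siKLF5b. It measured 1.51, 1.48 and 0.965 CPM in siNC1 and 2.38, 2.55 and 3.12 CPM in siKLF5b, from 23 to 34 and from 49 to 62 counts. The 2 groups did not overlap, and the log2FC was 1.02 (SE 0.247, adjusted p = 0.00226, edgeR). In the other set SOX21 measured 2.09, 2.01 and 2.39 CPM in siTP63b, 1.41, 2.21 and 1.99 CPM in siSOX2b, and 1.51, 1.33 and 1.13 CPM in siGRHL2a. Here siTP63b lay above siGRHL2a (log2FC 0.70, SE 0.228, adjusted p = 0.0201, edgeR), but not past 0.05 without siTP63b replicate 3 (0.64) or siGRHL2a replicate 3 (0.61), and siSOX2b overlapped both. Without siSOX2b replicate 1, siSOX2b lay above siGRHL2a by 0.68 (adjusted p = 0.0427, edgeR). SOX21 lies on chromosome 13 from 94709622 to 94712545 (minus strand, 1 exon) and wholly within the antisense gene SOX21-AS1, of whose counts it made up 28.8% to 44.2%. SOX21-AS1 had a log2FC of 0.88 in siKLF5b (adjusted p = 0.000283, edgeR), and its counts outside SOX21, which are distinct reads, had one of 0.80 (adjusted p = 0.00493, edgeR). Since counting appeared to ignore strand, the counts on SOX21 may hold reads of either gene. This was not tested.

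SOX7, a group F factor known from endothelial and primitive endoderm development, fell in siKLF5b. Its libraries measured 17.6, 17.1 and 17.7 CPM in siNC1 and 9.38, 9.62 and 9.29 CPM in siKLF5b, a log2FC of -0.89 (SE 0.0945, adjusted p = 1.5e-08, edgeR) that ranged from -0.91 to -0.87 over the alternatives. In the other set it was highest where SOX2 was lowest, at 26.1, 25 and 25.7 CPM in siSOX2b, against 17.4, 14 and 17 CPM in siTP63b and 15.3, 15.3 and 15.9 CPM in siGRHL2a. The siSOX2b libraries stood above all others of the 15, whereas siTP63b overlapped siGRHL2a and siNC1. The log2FC was -0.67 for siTP63b against siSOX2b (adjusted p = 1.6e-07, edgeR) and 0.73 for siSOX2b against siGRHL2a (adjusted p = 6.1e-08, edgeR), both just short of the 0.75 required. Leaving out siSOX2b replicate 2 or siGRHL2a replicate 3 moved the second past it, to 0.75 and 0.76. SOX7 lies on chromosome 8 from 10723768 to 10730511 (minus strand), and 75.8% of its length lies in a gene model named PINX1 (ENSG00000258724.1) on the same strand. That model had log2FCs of -0.53, -0.53, 0.10 and 0.63 in siKLF5b against siNC1, siTP63b against siSOX2b, siTP63b against siGRHL2a and siSOX2b against siGRHL2a. SOX7 counts equalled 52.5% to 82.4% of its counts, so part of each gene's value may be shared reads. ENSG00000248896, on the opposite strand, covers 17.8% of SOX7.

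Of the group C members, which act in progenitor cells and in neuronal and epithelial differentiation, SOX4 was lowest in siSOX2b. SOX4 (chromosome 6, from 21593751 to 21598619, plus strand) measured 15.7 to 17.8 CPM in siSOX2b, 21.2 to 22.4 CPM in siTP63b and 21 to 22.7 CPM in siGRHL2a. The siSOX2b libraries lay below both other groups, with log2FCs of 0.37 for siTP63b against siSOX2b (adjusted p = 0.000285, edgeR) and -0.39 for siSOX2b against siGRHL2a (adjusted p = 0.000246, edgeR). Between siTP63b and siGRHL2a it was -0.02 with a 95% interval of -0.16 to 0.13, and in siKLF5b it was 0.13 with an interval of -0.02 to 0.28. A gene on the opposite strand, ENSG00000283480, covers 37.9% of SOX4. SOX12 (chromosome 20, from 325552 to 330224, plus strand) measured 13.4 to 14.6 CPM in siKLF5b against 10.7 to 11.5 CPM in siNC1, a log2FC of 0.33 (adjusted p = 0.0105, edgeR), and of 0.29 (adjusted p = 0.0724, edgeR) without siKLF5b replicate 2. It measured 12.5 to 14 CPM in siTP63b, 13.3 to 14.9 CPM in siSOX2b and 14.9 to 16.8 CPM in siGRHL2a. The difference of siTP63b from siGRHL2a was -0.27 (adjusted p = 0.02, edgeR) and passed 0.05 in 8 of 13 alternatives. It missed 0.05 with no low-count filter (adjusted p = 0.0625, edgeR) and without siTP63b replicate 1 (-0.25) or 2 (-0.23) or siGRHL2a replicate 1 (-0.23) or 3 (-0.26). SOX12 lies wholly inside NRSN2-AS1 and made up 60.2% to 76.9% of its counts.

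The group D members differed in opposite directions between siTP63b and the other 2 groups of its set. SOX6 and SOX13 work as partners or competitors of other SOX proteins, SOX6 with SOX5 and SOX9 in cartilage. SOX6 (chromosome 11, from 15966449 to 16739591, minus strand) measured 25.9 to 29.4 CPM in siTP63b, below the 38.3 to 44.5 CPM of siSOX2b and the 33.9 to 42.7 CPM of siGRHL2a. Its log2FCs were -0.59 (adjusted p = 2.1e-06, edgeR) and -0.50 (adjusted p = 3.8e-05, edgeR). SOX13 (chromosome 1, from 204073115 to 204127743, plus strand) measured 14 to 16.1 CPM in siTP63b, above the 8.55 to 11.7 CPM of siSOX2b and the 10.3 to 11.4 CPM of siGRHL2a, with log2FCs of 0.53 (adjusted p = 0.00041, edgeR) and 0.46 (adjusted p = 0.00171, edgeR). None of these reached the fold required for a call. In siKLF5b, SOX6 measured 37.3 to 45.8 CPM and SOX13 8.67 to 10.9 CPM, overlapping the 41.1 to 48.5 CPM and the 9.81 to 11.3 CPM of siNC1. C11orf58, on the other strand, shares 126460 bases with SOX6, and it had log2FCs of -0.35 and -0.34 in siTP63b against siSOX2b and siGRHL2a. SOX6 counts equalled 30.8% to 39.9% of C11orf58 counts, so part of the SOX6 values may be shared reads. This was not tested. SOX13 shares only 1.56% of its length with another listed gene, ENSG00000286572.

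SOX9, the group E member that directs cartilage formation and marks the distal tips of the developing lung, had its highest mean in siTP63b. SOX9 (chromosome 17, from 72121020 to 72126416, plus strand) measured 8.55 to 11.7 CPM there, 7.89 to 9.03 CPM in siSOX2b and 5.61 to 7.22 CPM in siGRHL2a. Both siTP63b and siSOX2b lay above siGRHL2a, by log2FCs of 0.69 (adjusted p = 0.000142, edgeR) and 0.43 (adjusted p = 0.0184, edgeR). The second missed 0.05 without siSOX2b replicate 2 (0.37), siGRHL2a replicate 2 (0.36) or siGRHL2a replicate 3 (0.39). The siTP63b and siSOX2b libraries overlapped, with a log2FC of 0.27 (95% interval 0.01 to 0.52, adjusted p = 0.123, edgeR), and siKLF5b at 5.15 to 7.09 CPM overlapped siNC1 at 5.71 to 7 CPM. SOX9 lies wholly inside SOX9-AS1, whose count exceeded that of SOX9 by only 3 to 33 in each library, so that the 2 genes cannot be told apart in this table.

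SOX15, the group G member, which shares the DNA word of SOX2 and is expressed in keratinocytes and germ cells, had no adjusted p below 0.05 in any comparison of all libraries. SOX15 (chromosome 17, from 7588178 to 7590094, minus strand) measured 8.26 to 9.18 CPM in siNC1, 6.7 to 8.33 CPM in siKLF5b, 8.43 to 14.7 CPM in siTP63b, 12.5 to 14.6 CPM in siSOX2b and 11.6 to 14.2 CPM in siGRHL2a. Each group overlapped its neighbour in the order of levels, and siTP63b had the widest spread, at 11.1 ± 3.27 CPM (SD, n = 3). The 95% intervals of the log2FC ran from -0.47 to 0.13 in siKLF5b, from -0.56 to -0.04 in siTP63b against siSOX2b (adjusted p = 0.0864, edgeR), from -0.48 to 0.05 in siTP63b against siGRHL2a and from -0.17 to 0.34 in siSOX2b against siGRHL2a. Without siTP63b replicate 3, siTP63b lay below siSOX2b by a log2FC of -0.56 (adjusted p = 0.000697, edgeR), in place of -0.30, and below siGRHL2a by -0.46 (adjusted p = 0.00482, edgeR), in place of -0.22. Without siTP63b replicate 2 the same values were -0.14 and -0.04, and with no low-count filter the first had an adjusted p of 0.0479 (edgeR). SOX15 lies wholly inside MPDU1 on the opposite strand and made up 29% to 44.8% of its counts.

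Levels between genes were compared per kilobase of exon. In siNC1, SOX2 stood at 29.2 CPM per exon kilobase, SOX15 at 5.87, SOX7 at 5.43, SOX4 at 5.18 and SOX21, the lowest, at 0.451. SOX2 made up 52.6% to 55.6% of the summed level of the 9 protein-coding members in siNC1, 65% to 65.6% in siKLF5b, 26.4% to 34.7% in siTP63b, 20.6% to 24.4% in siGRHL2a and 8.88% to 11.5% in siSOX2b. SOX2 ranked highest in siNC1, siKLF5b and siTP63b, while SOX15 ranked highest in siSOX2b (9.34 CPM per exon kilobase, with SOX7 at 7.96 and SOX2 at 3.57). In siGRHL2a, SOX15 (8.77) and SOX2 (8.03) were close, and per kilobase of whole span SOX2 ranked above SOX15 there. Since reads in introns were counted, the levels per exon kilobase of the long genes SOX6 and SOX2-OT hold intronic reads too. SOX15 lies wholly inside MPDU1, and 75.8% of SOX7 lies inside PINX1, so their levels may hold reads of those genes. SOX9, SOX12 and SOX21 also lie wholly inside other genes, as does SOX2 inside SOX2-OT. The ranks and shares above carry this limit, and its size was not tested. Between siNC1 or siKLF5b and the other groups they also differ by set, which cannot be told apart from the siRNA. In siSOX2b the low SOX2 level is that of the siRNA's target.

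**Figure D4:**
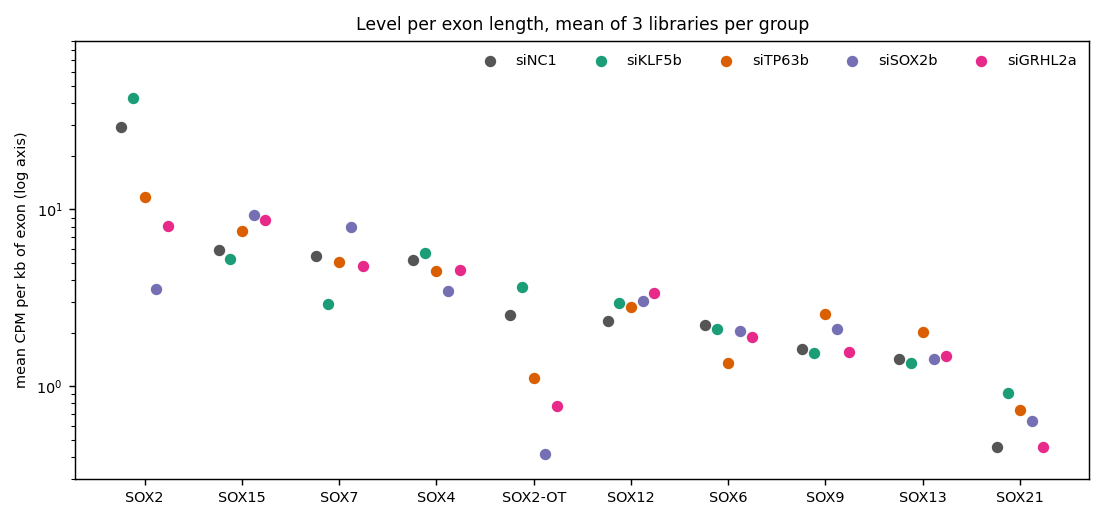
Mean CPM per kilobase of exon (log axis) of the 10 members, in 5 groups of 3 libraries, with genes ordered by their level in siNC1. SOX2 spans the widest range, from 42.6 in siKLF5b to 3.57 in siSOX2b, and SOX15 and SOX7 lie above it in siSOX2b. The siKLF5b and siSOX2b groups belong to different sets of libraries, and SOX2 is the target of siSOX2b. The levels of SOX15 and SOX7 may hold reads of the genes that overlap them.

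Of 14 further SOX family genes and antisense genes, 6 passed the filter on low counts. SOX8 and SOX10, the other group E genes, known from glia, neural crest and gonads, were at low levels. SOX8 measured 1.51, 1.87 and 1.8 CPM in siNC1 and 0.549 to 0.986 CPM in siKLF5b, where it fell (log2FC -1.09, SE 0.311, adjusted p = 0.00953, edgeR). Without siKLF5b replicate 1 this call was lost (-0.87, adjusted p = 0.0814, edgeR). SOX8 was also called lower in siTP63b (0.587 to 0.816 CPM) than in siSOX2b (0.973 to 1.58 CPM), with a log2FC of -0.85 (adjusted p = 0.0296, edgeR), in 7 of 13 alternatives. The call was lost with DESeq2 (adjusted p = 0.0577), no low-count filter (adjusted p = 0.0547, edgeR) and a fit of the 6 libraries (adjusted p = 0.079, edgeR). It was also lost without siTP63b replicate 1 (-0.74), siTP63b replicate 3 (-0.86) or siSOX2b replicate 2 (-0.65).

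SOX10 measured 0.265 to 0.52 CPM in siSOX2b, 0.685 to 0.918 CPM in siTP63b and 0.573 to 1.19 CPM in siGRHL2a. It was called lower in siSOX2b than in siGRHL2a (log2FC -1.42, adjusted p = 0.00866, edgeR), in 11 of 12 alternatives and not without siSOX2b replicate 2 (-1.23, adjusted p = 0.0531, edgeR). It was called higher in siTP63b than in siSOX2b (1.16, adjusted p = 0.0299, edgeR) in 6 of 12 alternatives. This call was lost with DESeq2 (adjusted p = 0.0638) and with a fit of the 6 libraries (adjusted p = 0.0606, edgeR). It was also lost without siTP63b replicate 2 (1.05), siTP63b replicate 3 (adjusted p = 0.0557, edgeR), siSOX2b replicate 2 (0.98) or siSOX2b replicate 3 (1.01). SOX10 lies wholly inside POLR2F, which had 10734 counts over the 15 libraries against 240 of SOX10. SOX5, the partner of SOX6, measured 6.47 to 7 CPM in siNC1 and 8.97 to 10.6 CPM in siKLF5b (log2FC 0.58, adjusted p = 0.00658, edgeR), below the fold required. Its level of 0.489 to 0.708 CPM in siSOX2b was called lower than the 0.795 to 1.33 CPM of siGRHL2a at a log2FC of -0.75 (adjusted p = 0.031, edgeR), on the edge of the threshold, and the call held in 3 of 13 alternatives. It was lost with DESeq2 (-0.74, adjusted p = 0.0449), the replicate block (-0.75), RLE factors, either other count filter, a fit of the 6 libraries (adjusted p = 0.176, edgeR) and halved counts (adjusted p = 0.081, edgeR), and without siSOX2b replicate 1 (-0.58), siSOX2b replicate 2 (-0.82, adjusted p = 0.0549, edgeR) or siGRHL2a replicate 1 (-0.51). SOX11, of group C, stayed at 0.0636 to 0.489 CPM over the 15 libraries.

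**Figure D5:**
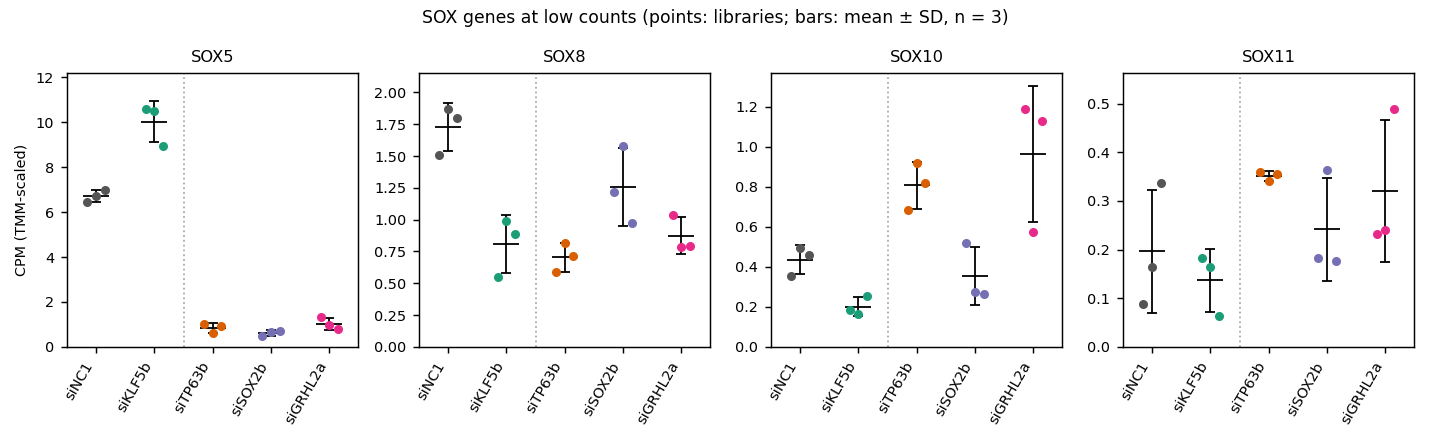
CPM (TMM-scaled, axes from 0) of SOX5, SOX8, SOX10 and SOX11 in each library, with the mean ± SD of each group (n = 3) and a dotted line between the 2 sets of libraries. SOX5 lies at 6.47 CPM or above in siNC1 and siKLF5b and at 1.33 CPM or below in the other 9 libraries.

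Partner factors, cofactors and enzymes that modify SOX proteins formed a list of 22 genes, of which 21 were tested. In siKLF5b 1 of the 21 was called, against 3.26% of all genes tested. It was XPO4, a nuclear transport receptor that carries SOX2, which fell (log2FC -0.83, adjusted p = 5.6e-13, edgeR). SETD7 of the same list was higher at the edge of the threshold (0.75, adjusted p = 7.3e-11, edgeR) and was not called. With no low-count filter, a fit of the 6 libraries or halved counts, 2 genes of the list were called, and with DESeq2 1. In siTP63b against siSOX2b 2 were called, against 6.7% of all genes. WWP2, a ubiquitin ligase that acts on SOX2, was higher (0.82, adjusted p = 2.1e-09, edgeR), and TP63, the siRNA's target, was lower (-0.93). Against siGRHL2a, 3 of the 21 were called in siTP63b, against 5.39% of all genes, and all 3 were lower. They were TP63 (-1.19), again the siRNA's target, the POU factor POU3F1 (-0.83, adjusted p = 0.0479, edgeR) and TCF7L1, a nuclear effector of Wnt signalling with an HMG box (-0.82, adjusted p = 1.4e-09, edgeR). The call of POU3F1 held in 3 of 13 alternatives. It was lost with DESeq2 (adjusted p = 0.111), the replicate block (adjusted p = 0.0579, edgeR), RLE factors, no low-count filter, a fit of the 6 libraries and halved counts. It was also lost without siTP63b replicate 2 (-0.65), siTP63b replicate 3 (-0.81), siGRHL2a replicate 1 (-0.59) or siGRHL2a replicate 3 (-0.92). The call of TCF7L1 was lost without siTP63b replicate 2 (-0.75). Between siSOX2b and siGRHL2a 1 was called, against 3.32%, LEF1, another HMG box factor of that pathway, which was lower in siSOX2b (-0.84, adjusted p = 5.0e-09, edgeR). The median log2FC of the list was -0.03, -0.03, -0.01 and 0.06 in the 4 comparisons, in the order given above.

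Target genes of SOX proteins known from other tissues were mostly at low counts. Of 12 cartilage matrix genes activated by SOX9 with SOX5 and SOX6, 6 were tested and 1 was called in any comparison, MATN1, which was higher in siSOX2b than in siGRHL2a, where 3.32% of all genes were called (log2FC 1.07, SE 0.332, adjusted p = 0.0164, edgeR), but not without siSOX2b replicate 1 (0.88, adjusted p = 0.0991, edgeR). Among 9 reported targets of SOX2, SOX4 and SOX11, 4 were tested and 1 was called in any comparison, CCND1, the gene of the G1 cyclin D. It fell in siKLF5b, where 3.26% of all genes were called, and was 2.83-fold lower than in siNC1 (adjusted p = 1.7e-21, edgeR). CCND1 had log2FCs of 0.34 for siTP63b against siSOX2b, 0.53 for siTP63b against siGRHL2a and 0.19 for siSOX2b against siGRHL2a, where SOX2 had 1.73, 0.55 and -1.18.

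The genes with a pattern most like that of a member were found over the 5 group means of log2 CPM, each centred within its set. For SOX2, over 15344 genes, they were ID4, an inhibitor of basic helix-loop-helix factors (root mean square difference 0.086), the divergent transcript MTUS1-DT (0.090) and ENSG00000281383 (0.117). ID4 had log2FCs of 1.92 for siTP63b against siSOX2b and -1.10 for siSOX2b against siGRHL2a, both called, and of 0.64 in siKLF5b (SE 0.409, adjusted p = 0.289, edgeR). For siTP63b against siGRHL2a, ID4 was called (0.82, adjusted p = 4.1e-06, edgeR), whereas SOX2 had 0.55 and was not called. MTUS1-DT had 1.77 for siTP63b against siSOX2b and -1.44 for siSOX2b against siGRHL2a, also called, whereas the SE of ENSG00000281383 was 3 and 3.33 there. For SOX7, over 15343 genes, they were B4GAT1, a glycosyltransferase that acts on dystroglycan (0.064), F3, which encodes tissue factor (0.072), and MAFF, a small MAF factor (0.076). B4GAT1 had log2FCs of -0.73 in siKLF5b, -0.79 in siTP63b against siSOX2b and 0.72 in siSOX2b against siGRHL2a, where SOX7 had -0.89, -0.67 and 0.73.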

How the data were processed

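RNA-seq counts were analysed for 15 libraries of HCC95 cells. GEO's labels named the molecule as genomic DNA and the library source as genomic, whereas the methods describe RNA-seq, and the values were treated as RNA-seq. Per the methods and processing notes, the authors selected polyadenylated RNA, mapped read pairs to hg38 using HISAT2 2.2.1 and counted uniquely aligned reads with featureCounts 2.0.1, and they deposited raw counts per gene without normalization. Use of strand, and of reads or fragments, was not stated. All columns matched a library by name (0 left over). The counted length equalled the whole span for all 61544 genes, and the 37 mitochondrial genes had 0 counts. Members had the same span in Gencode release 44.

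One quasi-likelihood fit of the 15 libraries was made in edgeR 4.0.16 (R 4.3.3) with TMM factors, filterByExpr by group and Benjamini-Hochberg adjustment over 25108 genes. The spread behind each p-value was therefore estimated over both sets of libraries. A call needed an absolute log2FC above 0.75 beside an adjusted p below 0.05. SE was the log2FC over the root of the F statistic. DESeq2 1.42.0, RLE factors, other low-count filters, a replicate block, fits of 6 libraries, halved counts in 9 libraries, no fold requirement and each library left out were alternatives, and the antisense genes without the SOX gene they span were added after seeing the data. The steps were tested on simulated counts. Replicates differed by more than counting noise (chi-square per gene 2.04 to 4.34 in siNC1 and siKLF5b and 4.95 to 8.1 in the other groups). The members and lists were chosen with earlier results of these data known. Named genes were the members, the SOX genes tested, list genes called in any comparison (at most 5 a comparison), and the 3 genes most like SOX2 and most like the other member with the smallest adjusted p, among those averaging 100 counts or more. SETD7 was named besides, for its value at the fold threshold.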

Additional observations from a re-analysis of the deposited data

How the results depend on the processing

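Of 520 values of the members under alternatives, 505 kept their direction and remained either called or not called, 8 changed sign, 6 became called and 1 was no longer called. By the adjusted p alone, 11 of the 520 values lost 0.05 (SOX12, SOX21 and SOX9) and 4 gained it (SOX15 and SOX21). The sign changes were all of small differences. With 1 library left out, SOX6 ranged from -0.12 to 0.02, SOX9 from -0.20 to 0.02 and SOX13 from -0.15 to 0.00 in siKLF5b against siNC1, SOX4 from -0.05 to 0.01 in siTP63b against siGRHL2a, and SOX13 from -0.13 to 0.08 in siSOX2b against siGRHL2a, where SOX2-OT ranged from -0.99 to -0.75 and was not called without siSOX2b replicate 2. SOX9-AS1 outside SOX9 gave 0.06 in siKLF5b in place of -0.06. Without the requirement on log2FC, 5, 6, 7 and 5 members and 5828, 7977, 6792 and 6151 genes were called in siKLF5b against siNC1, siTP63b against siSOX2b, siTP63b against siGRHL2a and siSOX2b against siGRHL2a, in place of 2, 2, 0 and 2 members and 818, 1682, 1354 and 833 genes. With at least 10 counts in every library, the last 3 comparisons called 1090, 897 and 514 genes, from fewer genes tested. With 1 library left out, 0 to 2 members were called in siTP63b against siGRHL2a, and 2 to 3 in siSOX2b against siGRHL2a. SOX2-OT outside SOX2 ranged from 0.45 to 0.75 in siTP63b against siSOX2b (0.75, past the thresholds, without siSOX2b replicate 1), and with SOX2 counts included it was 1.44 there and -0.91 in siSOX2b against siGRHL2a.

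Same-numbered libraries did not deviate together (correlations of -0.03 to 0.03), so no pairing by number was seen. Such correlations cannot exclude that same-numbered libraries were prepared together. With the replicate block, 2, 2, 0 and 2 members and 805, 1667, 1345 and 825 genes were called. With fits of only the 6 libraries compared, the same numbers of members and 1090, 1357, 1156 and 693 genes were called. Low counts limit SOX21, SOX8, SOX10 and SOX11, and overlaps limit SOX2-OT, SOX4, SOX6, SOX7, SOX9, SOX10, SOX12, SOX15 and SOX21.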

Other observations

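Between the sets, SOX5 measured 6.47 to 10.6 CPM in the 6 libraries of siNC1 and siKLF5b and 0.489 to 1.33 CPM in the other 9, a ratio of means of 9.99. SOX2 measured 66.8 to 109 CPM against 7.09 to 31.5 CPM, a ratio of 4.61, and SOX4 24.6 to 29.2 CPM against 15.7 to 22.7 CPM, a ratio of 1.31. The sets did not overlap for 28.7% of all genes tested. SOX6, SOX7, SOX9, SOX12, SOX13, SOX15 and SOX21 overlapped between the sets, with ratios of 0.649 (SOX15) to 1.22 (SOX6). The set and the siRNA cannot be told apart in these values.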
